A study of Mus musculus with 6 samples.

Results

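The genes described are those of the Wnt pathway that act at the cell surface: the secreted Wnt ligands, their Frizzled and LRP receptors, the R-spondins, and the secreted inhibitors of the Sfrp, Frzb and Dkk families, with the intracellular scaffolds Axin1 and Axin2. They were taken by name, as every array gene whose symbol begins with Wnt, Fzd, Sfrp, Dkk, Rspo or Axin followed by a digit, or is Frzb, Lrp5 or Lrp6. This gave 46 genes, measured by 54 probes, of 35425 genes on the array, and each gene was read from its probe with the highest mean signal. They were followed in cardiomyocyte fractions of adult mice with a knockout of H19, an imprinted long non-coding RNA (3 arrays), and of wild-type littermates (3 arrays). All mice of both genotypes had undergone transverse aortic constriction (TAC), a constriction of the aorta that makes the left ventricle pump against a higher pressure, and the fractions were taken by retrograde perfusion of the heart 6 weeks later. The deleted region, the strain and whether an array held RNA of 1 mouse are not given in the sources used here, so the p-values reflect only how these samples differ among themselves, which may be technical. Hearts without TAC were not analysed here.

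Wnt proteins are secreted lipid-modified ligands that bind Frizzled receptors. Together with the co-receptors Lrp5 or Lrp6 they stop the Axin complex from marking beta-catenin for breakdown, while other Wnt and Frizzled pairs act on cell polarity or calcium without beta-catenin. R-spondins keep Frizzled receptors at the surface, Sfrp proteins and Frzb bind Wnts outside the cell, and Dkk proteins act on Lrp5 and Lrp6. In the adult heart the pathway is largely quiet in cardiomyocytes and is known for its activity in cardiac fibroblasts and in remodelling after injury or load.

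Promoter sequences are shown for 4 genes on which the results turn. Among the 26 tested genes of the family, Sfrp2 and Frzb varied most between the arrays and were highest on the same arrays. Fzd5 and Wnt4 had the largest fitted differences of those of the 26 whose genotypes did not overlap. Each window runs from 250 bases before the gene's start to 50 after it in RefSeq, build GRCm38.p6, written 5′ to 3′ on the gene's strand, and 29 of the 46 genes matched a window. The motif GGGCGG, known as a GC box, is in capitals on either strand, with overlapping copies run together. The Sfrp2 window is chr3:83766071-83766370 on the plus strand, the Frzb window chr2:80447347-80447646 on the minus strand, the Fzd5 window chr1:64737701-64738000 on the minus strand and the Wnt4 window chr4:137277385-137277684 on the plus strand.
Sfrp2: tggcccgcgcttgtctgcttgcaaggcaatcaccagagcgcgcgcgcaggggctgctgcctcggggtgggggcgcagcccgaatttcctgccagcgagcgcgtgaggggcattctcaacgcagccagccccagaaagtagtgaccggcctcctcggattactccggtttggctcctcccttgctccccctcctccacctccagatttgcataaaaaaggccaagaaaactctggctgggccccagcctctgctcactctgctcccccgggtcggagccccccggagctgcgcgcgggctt
Frzb: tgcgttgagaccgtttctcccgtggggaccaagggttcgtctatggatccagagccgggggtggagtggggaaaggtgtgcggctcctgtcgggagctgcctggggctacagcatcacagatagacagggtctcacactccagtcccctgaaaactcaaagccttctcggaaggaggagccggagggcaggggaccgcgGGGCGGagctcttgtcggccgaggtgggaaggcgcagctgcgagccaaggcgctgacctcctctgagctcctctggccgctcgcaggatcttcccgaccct
Fzd5: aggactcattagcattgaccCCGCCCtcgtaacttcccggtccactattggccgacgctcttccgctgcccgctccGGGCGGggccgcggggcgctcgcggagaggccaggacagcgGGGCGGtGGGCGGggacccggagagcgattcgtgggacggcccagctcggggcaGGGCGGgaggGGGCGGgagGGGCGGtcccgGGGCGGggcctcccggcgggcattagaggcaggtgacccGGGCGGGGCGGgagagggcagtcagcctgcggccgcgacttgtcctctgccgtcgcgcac
Wnt4: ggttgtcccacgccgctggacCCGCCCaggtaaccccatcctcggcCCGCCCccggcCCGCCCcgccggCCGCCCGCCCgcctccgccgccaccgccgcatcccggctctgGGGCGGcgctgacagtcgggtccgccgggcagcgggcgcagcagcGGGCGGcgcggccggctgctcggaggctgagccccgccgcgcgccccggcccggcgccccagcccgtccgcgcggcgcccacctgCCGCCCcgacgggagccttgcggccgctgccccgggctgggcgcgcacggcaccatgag

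GGGCGG was found 10 times in the Fzd5 window and 8 times in the Wnt4 window, against 1 time in the Frzb window and 0 times in the Sfrp2 window. The G and C content was 75.7% for Fzd5 and 84.3% for Wnt4, 64.7% for Frzb and 66% for Sfrp2, beside a median of 52.7% over all windows. GGGCGG was in 24 of the 32 windows of the 29 genes (75%) and in 35.7% of all 32851 windows. This motif holds only G and C, and the G and C content of the 32 windows as a set was not computed. Nothing particular to the family is therefore read from these shares. TATAAA was in 12.5% of the 32 windows and in 13.6% of all. CCAAT was in 37.5% of the 32 windows and in 37.4% of all. CTTTG followed by A or T and again by A or T, the core bound by Tcf and Lef factors, was in 15.6% of the 32 windows and in 16.9% of all. None of the 4 printed windows held TATAAA or this core, and CCAAT was in the Fzd5 window only. All motifs were searched on both strands.

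Values below are the log2 of the background-subtracted signal divided by the 75th percentile of its array, so 0 is that percentile itself. A probe was called detected on an array where the scanner software flagged it as well above background, and a gene was tested where its probe was detected on at least 3 of the 6 arrays. H19 was not detected on any knockout array by any of its 7 probes, with signals of -5.97, -6.72 and -6.28 in H19 knockout, against 1.41, 0.46 and 0.53 in wild type. Wild type exceeded knockout by at least 32.7-fold (limma with Benjamini-Hochberg adjustment over all genes, adjusted p = 0.00234). Between 48.8% and 58.6% of the spots of an array were detected and none was saturated. Wild-type replicate 1 had the lowest 75th percentile (774 intensity units) and the highest median signal (98.9). Its lowest detectable signal, -3.48, was also the highest of the 6 arrays. The family's genes not detected by their brightest probe on any array read highest there, except Wnt2, Wnt10b and Sfrp4. The part of this shift in the differences of dim genes was not tested. Slide 1 held the replicates numbered 1 of both genotypes, and slide 2 held those numbered 2 and 3. Correlations between arrays over all tested genes were 0.981 to 0.990 within genotypes and equally 0.981 to 0.990 between them.

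Markers of cardiomyocytes and of other cell types were detected in the fractions of both genotypes. The summed signal of 8 cardiomyocyte markers was 1233 to 1461 times the 75th percentile in H19 knockout, against 1374 to 1509 times in wild type, with a median difference of -0.04 over the list. For 13 fibroblast markers, among them Dcn, Pdgfra, Col1a1 and Tcf21, it was 262 to 525 times in H19 knockout and 174 to 346 times in wild type, with a median difference of 0.47. The median was 0.05 over 9 endothelial markers, -0.58 over 9 macrophage markers, 0.09 over 9 markers of smooth muscle and pericytes, 0.30 over the 4 mesothelial markers tested, 0.50 over the 3 lymphocyte markers tested and -0.08 over the 4 Schwann cell markers tested. Lrrn4, a mesothelial marker, and Ms4a1, a lymphocyte marker, were not detected on any array. In such mixed fractions, fewer cells of a type and less RNA per cell cannot be told apart.

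Receptors and co-receptors were read almost completely in these fractions, and ligands only in part. Of 10 Frizzled genes 9 were tested, and both co-receptors were, whereas 7 of 19 Wnt genes passed the detection filter. Among the secreted inhibitors, 4 of the 5 genes of the Sfrp and Frzb group and 1 of 4 Dkk genes passed, and 2 of 4 R-spondins and 1 of 2 Axin genes did. In all, 26 of the 46 genes were tested (56.5%), beside 61.7% of all genes, and 23 of them were detected on all 6 arrays.

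**Figure D1:**
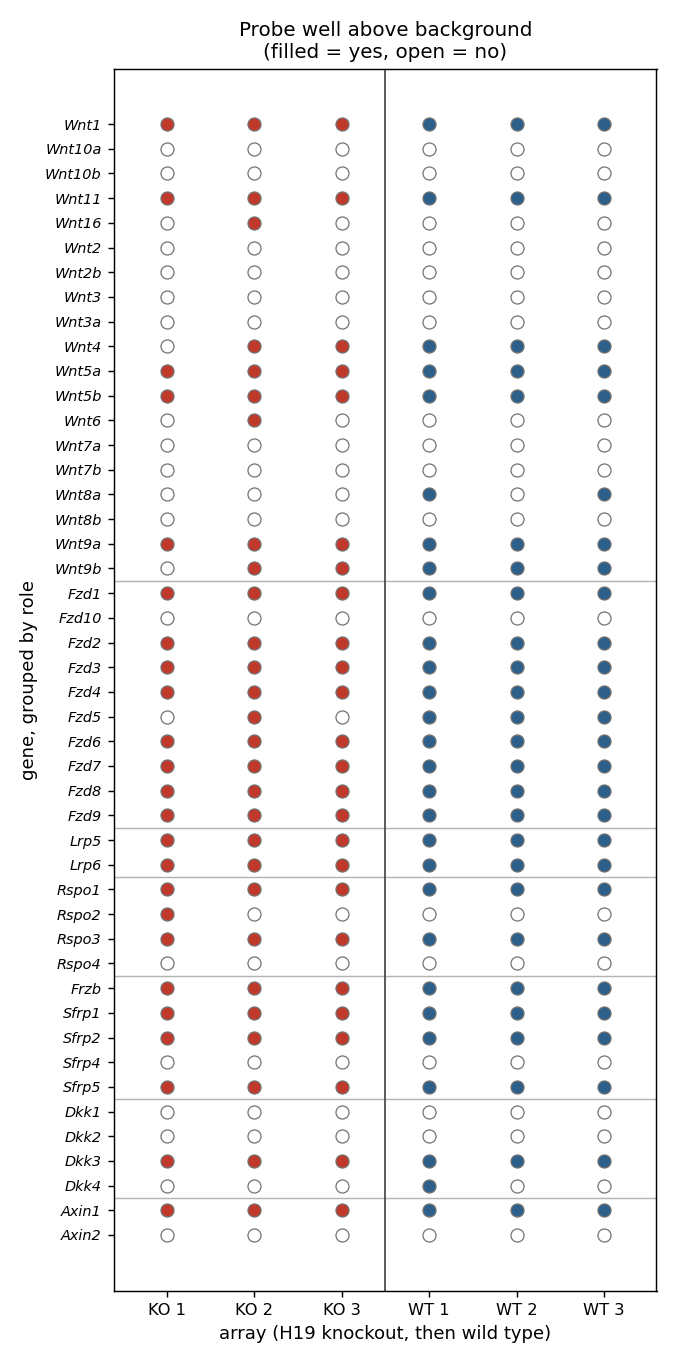
Detection of the 46 genes on the 3 H19 knockout arrays (left) and the 3 wild-type arrays (right); a filled point marks a probe well above background and genes are grouped by role on the vertical axis. The 23 genes detected on all 6 arrays include 8 Frizzled receptors and both co-receptors, and 15 genes were detected on none by the probe plotted, the gene's brightest.

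Of the 46 genes, 15 were not detected by their brightest probe on any array, and 14 by no probe at all. Wnt3 and Wnt3a, ligands that act through beta-catenin, were detected on 0 of 6 arrays, as were Wnt2, Wnt2b, Wnt7a, Wnt7b, Wnt10a, Wnt10b and, by its brightest probe, Wnt8b. The same held for Fzd10, for Rspo4, for the inhibitors Sfrp4, Dkk1 and Dkk2, and for Axin2, a scaffold that beta-catenin itself induces and that is often used as a reporter of the pathway. Axin2 had signals of -4.32, -4.99 and -5.60 in H19 knockout and of -3.70, -4.43 and -5.57 in wild type, and none was flagged as well above background. These probes give only an upper bound in both genotypes, so no fold is given.

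A further 5 genes were detected on 1 or 2 arrays and not tested. Wnt8a, a ligand of early embryonic patterning, had -6.14, -6.24 and -4.88 in H19 knockout, against -1.53, -5.24 and -3.22 in wild type, and was detected on wild-type replicates 1 and 3 only. Dkk4, an inhibitor that binds Lrp6, had -4.95, -5.86 and -6.44 in H19 knockout, against -1.66, -4.38 and -4.76 in wild type, and was detected on wild-type replicate 1 only. Against the lowest detectable signal of the knockout arrays, Wnt8a was at least 1.87-fold and Dkk4 at least 1.55-fold higher in wild type, where 2 arrays detected Wnt8a and 1 array detected Dkk4. Both bounds rest on wild-type replicate 1, and without it they were 1.0 for Wnt8a and 0.789 for Dkk4, so no fold is left. Rspo2 was detected on knockout replicate 1 only, and Wnt6 and Wnt16 on knockout replicate 2 only.

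No gene of the family passed the test between the genotypes. With limma and Benjamini-Hochberg adjustment over all 21864 genes, 0 of the 26 tested genes were called, beside 0.032% of all genes (7 genes), and their smallest adjusted p was 0.62. At an unadjusted p under 0.05, 2 of the 26 were lower in H19 knockout (7.69%, beside 6.93% of all genes) and 0 were higher (beside 0.988%). All 3 knockout arrays lay below all 3 wild-type arrays for 4 genes (15.4%, beside 8.65% of all genes) and above them for 0 genes (beside 1.82%). These shares come to 2 and 4 genes, and nothing particular to the family is read from them. The fitted difference was above 0 for 11 genes (42.3%, beside 36.3% of all genes) and below 0 for 15. Its median was -0.04, beside -0.06 over all genes tested. These signs depend on the scaling: relative to the median of all probes in place of the 75th percentile, the median became 0.36 over all genes and 0.38 over the 26 genes, of which 22 then had a difference above 0, so a sign against 0 holds for this scaling only. Of the 26 genes, 15 lay above the median of all genes.

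**Figure D2:**
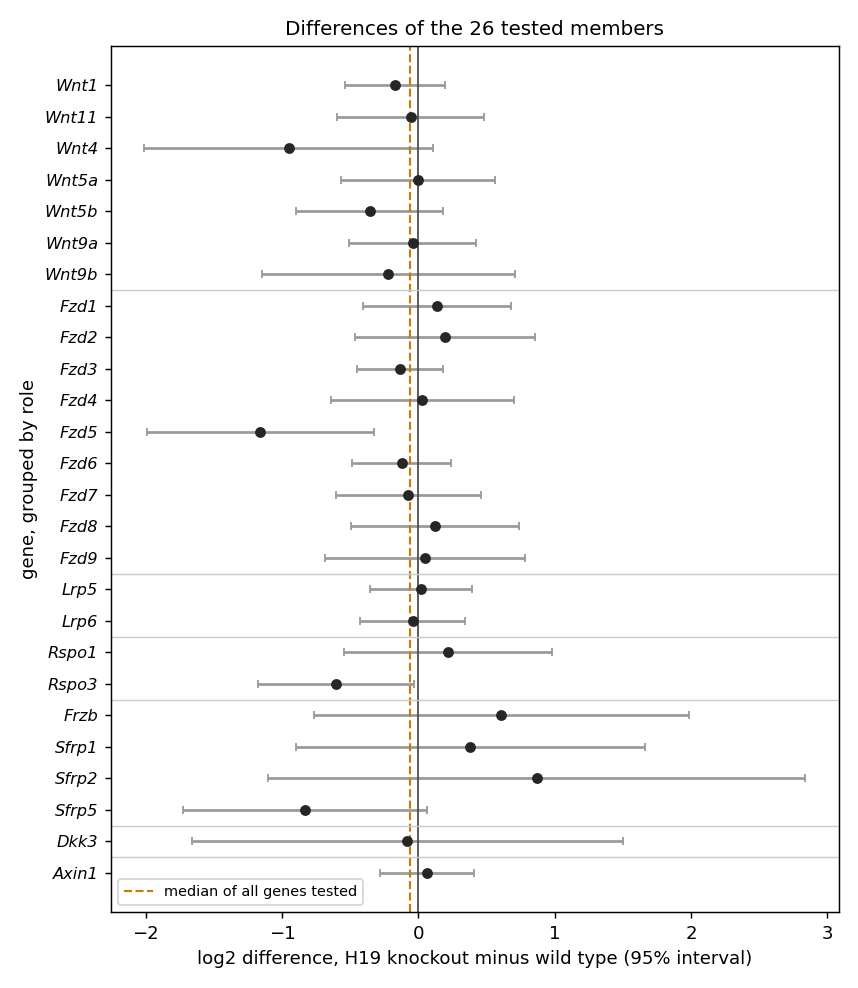
Log2 difference, H19 knockout minus wild type, of the 26 tested genes with its 95% interval from limma, grouped by role. The intervals of Fzd5 and Rspo3 lie below 0, those of the other 24 genes include 0, and the dashed line marks the median of all genes tested, -0.06.

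The 7 Wnt ligands tested all had a fitted difference below 0 with this scaling, and 6 of them one above 0 with scaling to the probe median. Of the 7, 3 lay above the median of all genes. Their median was -0.17, and 0 of the 7 passed the test. The brightest were Wnt5b, Wnt9a and Wnt5a. Wnt5b, a ligand that mostly acts without beta-catenin, had signals of 1.06, 1.35 and 1.41 in H19 knockout, against 1.74, 1.21 and 1.94 in wild type. Its probe maps to chr6:119382550-119382609 in mm9, and its difference was -0.36 (SE 0.23, limma adjusted p = 0.75), with wild-type replicate 2 inside the knockout range. Wnt9a, known from joint formation, had 0.67, 0.75 and 0.90 in H19 knockout and 0.52, 0.77 and 1.15 in wild type, a difference of -0.04 (SE 0.20). For Wnt5a, the best known ligand of the polarity branch, the values were -0.23, -0.52 and -0.80 in H19 knockout and -0.17, -0.87 and -0.50 in wild type. The genotypes overlapped almost wholly, and the 95% interval of the Wnt5a difference was -0.57 to 0.56.

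Wnt4, a ligand required for kidney tubule formation, had the largest difference of the tested ligands. It was also the only tested ligand whose genotypes did not overlap. Its signals, from chr4:136851690-136852258 in mm9, were -3.98, -3.69 and -3.72 in H19 knockout, against -1.77, -3.16 and -3.60 in wild type. The 3 knockout arrays were close to each other. Wild-type replicate 1, on which most undetected probes of the family also read highest, stood well above the rest. The probe was detected on all arrays but knockout replicate 1. The difference was -0.95 (SE 0.45, limma adjusted p = 0.64). Within slide 1 it was -2.21 and within slide 2 -0.32. Leaving out wild-type replicate 1 gave -0.42. Other scalings and background correction gave -0.53 to -0.66.

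The remaining ligands had dimmer probes. Wnt11, known from outflow tract formation in the mouse embryo, had -2.54, -2.53 and -2.42 in H19 knockout and -1.98, -2.80 and -2.55 in wild type, a difference of -0.06 (SE 0.23). Wnt9b, a ligand of kidney and palate development, had -4.07, -2.55 and -3.44 in H19 knockout and -2.85, -3.04 and -3.51 in wild type, with a difference of -0.22 (SE 0.39). Knockout replicate 1 was its lowest array and the only one without detection.

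Wnt1, the founding ligand of the family, was detected on all 6 arrays, but by only 1 of its 2 probes. That probe, at chr15:98624201-98624260 in mm9, gave -1.72, -1.55 and -1.93 in H19 knockout, against -1.55, -1.53 and -1.61 in wild type, a difference of -0.17 (SE 0.15). The other, which starts 925 bases upstream at chr15:98623276-98623335, was detected on 0 arrays, with signals from -5.64 to -6.57. Detection of Wnt1 therefore rests on a single probe that its neighbour did not share. The last 30 bases of both 60-base probes are shown because the detected one ends beside AATAAA, the signal for cleavage and polyadenylation, which is in capitals.
Wnt1 detected probe: cttcctctgaggAATAAAatatctattttt
Wnt1 probe not detected: cacacgcgcgttctgcacgagtgtctatga

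**Figure D3:**
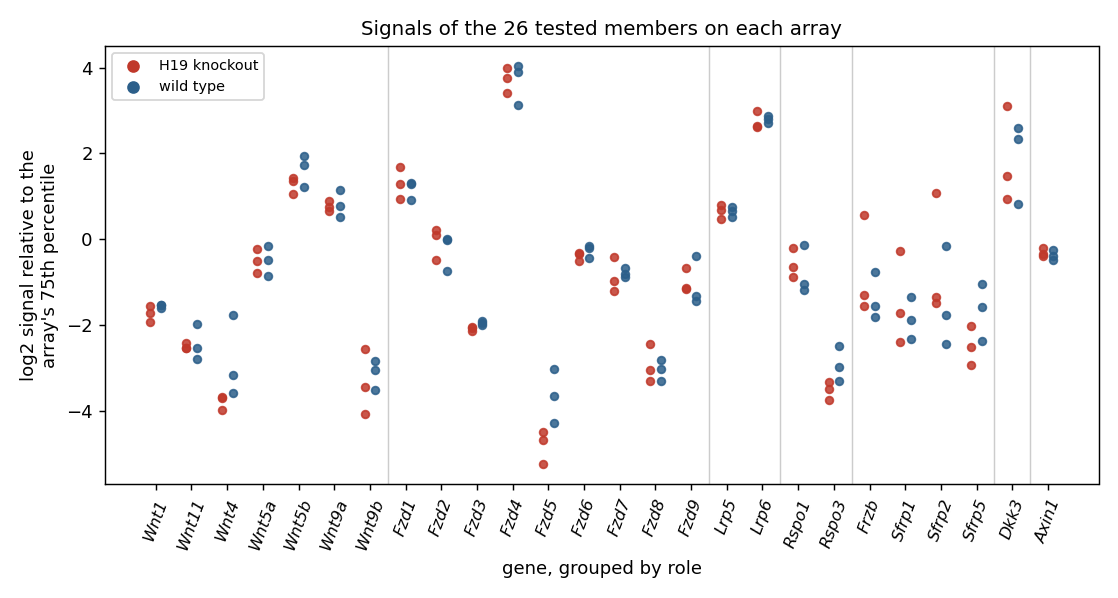
Log2 signals of the 26 tested genes, on a scale where 0 is the array's 75th percentile, 1 point per array, with H19 knockout to the left of wild type for each gene. Probes differ in brightness, so only points of the same gene can be compared; Sfrp2 spans the widest range and Fzd3 the narrowest.

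The 9 Frizzled receptors tested had differences on both sides of 0, with a median of 0.03. Fzd4, known from retinal vessel formation as the receptor of norrin, had the brightest probe of the role, with 3.41, 3.99 and 3.76 in H19 knockout, against 3.90, 4.04 and 3.13 in wild type. Fzd1 had 1.28, 1.68 and 0.94 in H19 knockout and 1.30, 0.92 and 1.27 in wild type. Fzd2 had 0.09, 0.22 and -0.49 in H19 knockout and -0.03, -0.74 and -0.01 in wild type. In all 3 the arrays of the genotypes were interleaved, and the difference was 0.03 (SE 0.28) for Fzd4, 0.13 (SE 0.23) for Fzd1 and 0.19 (SE 0.28) for Fzd2. For Fzd6, which with Fzd3 orients cells within epithelia, it was -0.12 with a 95% interval from -0.48 to 0.24. It was -0.07 (SE 0.22) for Fzd7, 0.12 (SE 0.26) for Fzd8 and 0.05 (SE 0.31) for Fzd9, each detected on all 6 arrays.

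Fzd5, a receptor needed for yolk sac vessels in mouse embryos, had the largest fitted difference of the 26 tested genes with this scaling. With the other scalings and with normexp background correction Sfrp2 had a larger one. Its probe at chr1:64781972-64782030 in mm9 gave -5.26, -4.50 and -4.69 in H19 knockout, against -3.03, -3.66 and -4.28 in wild type. All 3 knockout arrays lay below all 3 wild-type arrays. The probe was detected on all 3 wild-type arrays and on knockout replicate 2 only, so the receptor is read near the detection limit. The fitted difference was -1.16 (SE 0.35, unadjusted p = 0.0135, limma adjusted p = 0.62), and its size is not exact because the signals of the 2 other knockout arrays are readings at background. With this scaling, and with those arrays set at their lowest detectable signal, wild type exceeded knockout by at least 1.45-fold for Fzd5. Without wild-type replicate 1 it was at least 1.17-fold. The wild-type signals themselves lay close to the lowest detectable signals of their arrays, -3.48, -3.93 and -4.41. The bound was not computed for other scalings, so it is not a firm minimum. The fitted difference was -2.23 within slide 1 and -0.62 within slide 2, and other scalings and background correction gave -0.52 to -0.73. A second probe was detected on 1 array and gives no reading of the difference.

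Fzd3, a receptor of axon guidance and neural tube closure, also had genotypes that did not overlap, by a narrow margin. Its signals were -2.05, -2.15 and -2.07 in H19 knockout, against -1.91, -1.96 and -1.99 in wild type. The spread over the 6 arrays was 0.24, the smallest of the tested members. The difference was -0.14 (SE 0.13, limma adjusted p = 0.93), and it was 0.01 with quantile normalization and 0.29 with scaling to the probe median.

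Both co-receptors varied little between arrays. Lrp6, the main co-receptor for beta-catenin signalling in development, had 3.0, 2.63 and 2.62 in H19 knockout and 2.71, 2.80 and 2.87 in wild type. Lrp5, known for its part in bone mass, had 0.68, 0.80 and 0.46 in H19 knockout and 0.65, 0.51 and 0.74 in wild type. The difference was -0.04 for Lrp6 (SE 0.16, 95% interval -0.43 to 0.35) and 0.02 for Lrp5 (SE 0.16, 95% interval -0.36 to 0.39). A second Lrp6 probe, 4283 bases away and dimmer, was detected on all 6 arrays with a difference of -0.17.

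Of the R-spondins, Rspo3 was lower in H19 knockout at an unadjusted p and Rspo1 was not. Rspo3, known from placental and vascular development in mice, had -3.33, -3.50 and -3.74 in H19 knockout, against -2.49, -2.98 and -3.30 in wild type. The lowest wild-type array nearly met the highest knockout array, without overlap, and the probe at chr10:29172930-29172989 in mm9 was detected on all 6 arrays. The difference was -0.60 (SE 0.24, 95% interval -1.17 to -0.03), with an unadjusted p of 0.041 and a limma adjusted p of 0.63. Within slide 1 it was -0.85 and within slide 2 -0.48. Leaving out wild-type replicate 1 gave -0.38, and other scalings and background correction gave -0.18 to -0.38. Rspo1, known from ovary development, had -0.89, -0.20 and -0.65 in H19 knockout and -0.14, -1.20 and -1.05 in wild type, a difference of 0.22 (SE 0.32) with wild-type replicate 1 the highest array.

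**Figure D4:**
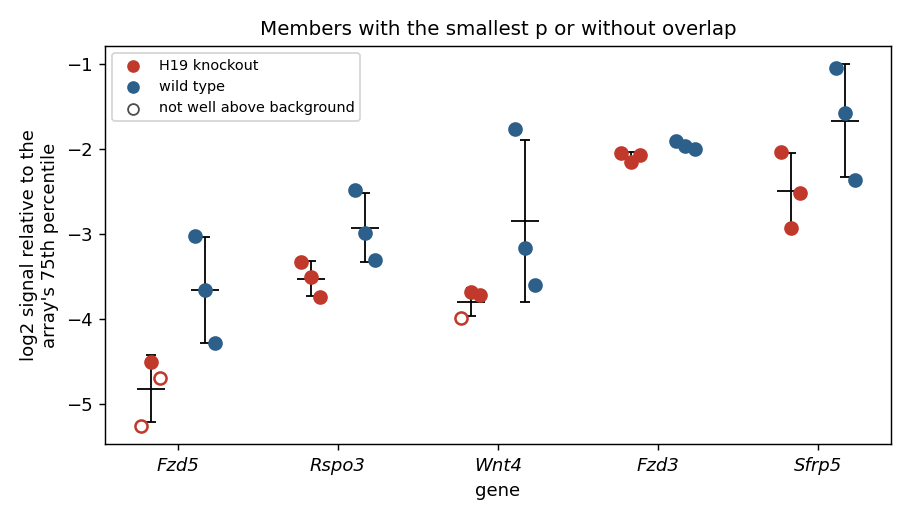
Log2 signals, with 0 at the array's 75th percentile, for the 4 tested genes whose genotypes did not overlap and for Sfrp5, 1 point per array with mean and SD (n = 3), H19 knockout left of wild type. Open points were not well above background: 2 of the 3 Fzd5 knockout arrays and 1 Wnt4 knockout array.

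Of the 26 tested genes of the family, Sfrp2 and Frzb varied most between arrays. In 3 of the 4 secreted Frizzled-related inhibitors tested, knockout replicate 2 stood far above the other arrays. Sfrp2, a secreted protein also studied in collagen processing of the injured heart, had -1.36, 1.07 and -1.49 in H19 knockout, against -0.16, -1.77 and -2.45 in wild type. Frzb, an inhibitor first described in cartilage, had -1.56, 0.56 and -1.31 in H19 knockout, against -0.76, -1.55 and -1.81 in wild type. Sfrp1, which binds Wnts and Frizzled receptors, had -2.41, -0.29 and -1.73 in H19 knockout, against -1.36, -1.88 and -2.33 in wild type. In all 3, knockout replicate 2 was the highest array and wild-type replicate 1 the next. The other arrays of both genotypes were interleaved for Frzb and Sfrp1, while for Sfrp2 the other knockout arrays lay above wild-type replicates 2 and 3. Knockout replicate 2 exceeded the mean of the other knockout arrays 5.64-fold for Sfrp2, 3.99-fold for Frzb and 3.43-fold for Sfrp1.

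The differences of these 3 genes were within the spread between arrays. They were 0.87 (SE 0.83, limma adjusted p = 0.92) for Sfrp2, 0.61 (SE 0.58, adjusted p = 0.92) for Frzb and 0.38 (SE 0.54, adjusted p = 1.0) for Sfrp1. Without knockout replicate 2 the difference was 0.03 for Sfrp2, -0.06 for Frzb and -0.21 for Sfrp1. On slide 1 the knockout array was lower, by a log2 difference of -1.20 for Sfrp2, -0.80 for Frzb and -1.06 for Sfrp1. On slide 2 the knockout arrays were higher on average, with 1.90 for Sfrp2, 1.31 for Frzb and 1.10 for Sfrp1. The Sfrp2 probe lies at chr3:83577864-83577923, the Frzb probe at chr2:80252582-80252641 and the Sfrp1 probe at chr8:24559438-24559497, in mm9.

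Sfrp2 had the widest range over the 6 arrays of the 26 genes, 3.52, and 0.691% of all tested genes had a wider one. Frzb spanned 2.37, with 2.63% of genes wider, and Sfrp1 2.12, with 4% wider. At the other end stood Fzd3, Axin1, Lrp5, Fzd6 and Lrp6, with ranges from 0.24 for Fzd3 to 0.38 for Lrp6. The median range was 0.90 over the 26 genes and 0.66 over all tested genes. Knockout replicate 2 was the highest array for 10 of the 26 genes (38.5%), beside 13% of all genes, and wild-type replicate 1 for 9 (34.6%), beside 28.9%. These arrays were the 2 highest for Frzb, Fzd1, Rspo1, Sfrp1, Sfrp2 and Wnt9b, 6 genes in all, and for 9.95% of all tested genes.

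Markers of fibroblasts and of some, not all, other cells that are not cardiomyocytes moved with the same arrays. All 13 fibroblast markers were highest on knockout replicate 2, and their mean deviation from the 6-array mean was -0.37, 1.10 and 0.13 in H19 knockout, against 0.32, -0.32 and -0.86 in wild type. From high to low, the arrays ran in the same order for this mean as for Frzb. Knockout replicate 2 was also the highest array and wild-type replicate 1 the next for the mean of the mesothelial markers (0.59 and 0.28), the endothelial markers (0.33 and 0.32) and the markers of smooth muscle and pericytes (0.31 and 0.24). The other lists did not have these arrays in this order. Macrophage markers were highest on wild-type replicate 3 (0.50), with knockout replicate 2 at 0.48 and wild-type replicate 1 at 0.03. Lymphocyte markers were highest on knockout replicate 3 (1.03) and Schwann cell markers on wild-type replicate 1 (0.49). For the cardiomyocyte markers knockout replicate 2 was the lowest, at -0.21. All 13 fibroblast markers had a difference above 0, with 0 called and 1 at an unadjusted p under 0.05, and their median of 0.47 was -0.76 on slide 1, 1.17 on slide 2 and 0.12 without knockout replicate 2, where 9 of the 13 stayed above 0. Summed over the list, the signal was 525 times the 75th percentile on knockout replicate 2 and 346 times on wild-type replicate 1, the 2 highest arrays. All 13 fibroblast markers were detected, and the part of these cell types in the values of Sfrp1, Sfrp2 and Frzb was not tested.

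Sfrp5, an inhibitor of Wnt5a known as a secreted product of fat tissue, ran the other way. Its signals at chr19:42272509-42272568 in mm9 were -2.04, -2.93 and -2.52 in H19 knockout, against -1.05, -1.57 and -2.37 in wild type. Knockout replicate 2, the highest array for Sfrp1, Sfrp2 and Frzb, was its lowest, and knockout replicate 1 lay within the wild-type range. The difference was -0.83 (SE 0.38, limma adjusted p = 0.64), with -0.99 within slide 1 and -0.75 within slide 2. It was -0.52 without wild-type replicate 1 and -0.41 with scaling to the probe median.

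Dkk3, the Dickkopf protein that differs from the others in not acting clearly through Lrp6, was bright and variable. Its signals were 1.47, 3.1 and 0.93 in H19 knockout, against 2.34, 2.58 and 0.82 in wild type. Knockout replicate 2 was again the highest array, 3.74-fold above the mean of the other knockout arrays, and replicate 3 of each genotype was low. The difference was -0.08 (SE 0.67), with -0.87 within slide 1 and 0.31 within slide 2, and -0.72 without knockout replicate 2. Its 95% interval was -1.66 to 1.5, so a 2-fold change in either direction was not detectable at this precision.

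**Figure D5:**
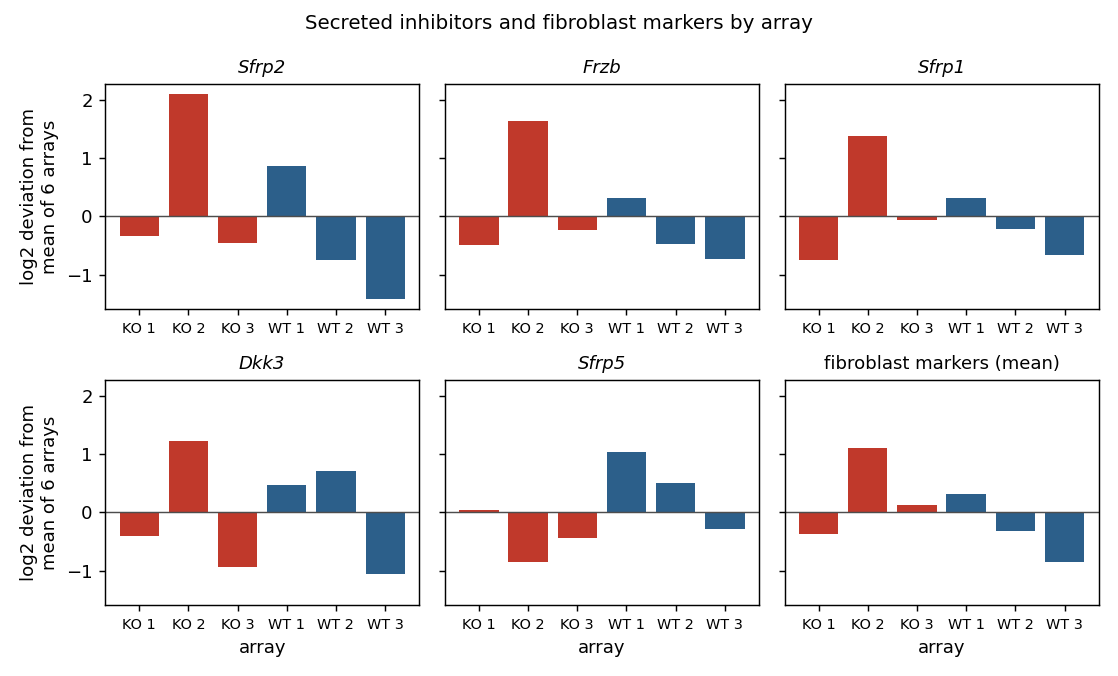
Log2 deviation of each array from the mean of the 6 arrays for 5 secreted inhibitors and for the mean of 13 fibroblast markers, with H19 knockout (KO) arrays left of wild-type (WT) arrays. Knockout replicate 2 is the highest bar for Sfrp2, Frzb, Sfrp1, Dkk3 and the fibroblast markers and the lowest for Sfrp5.

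Axin1, the scaffold of the complex that breaks down beta-catenin, was among the steadiest genes. It had -0.21, -0.35 and -0.41 in H19 knockout and -0.40, -0.26 and -0.49 in wild type, a difference of 0.06 (SE 0.15) with a 95% interval from -0.28 to 0.41.

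Genes with a second probe gave few independent checks. Of the 8 genes with 2 probes, Lrp6 was the only one with both probes detected on all 6 arrays. For Fzd2 and Fzd7, as for Wnt1, the other probe was detected on 0 arrays. Axin2 had 0 detecting arrays with both probes, and Wnt16 had 1 and 0. Wnt8b was not detected by its brightest probe, while the other was detected on 1 array.

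Further genes of the pathway, in 4 lists, were compared in the same fit, and none passed the test. Their counts above and below 0 move with the scaling as well: with scaling to the probe median the list medians were 0.46 to 0.54, beside 0.36 over all genes. Of 26 genes for Wnt secretion and surface modulation, 17 were tested, with 11 differences above 0 and 6 below and a median of 0.11. Kremen2, a receptor that works with Dkk proteins, had -3.70, -4.73 and -4.36 in H19 knockout, against -2.70, -3.16 and -3.94 in wild type, with overlapping genotypes. It was detected on the 3 wild-type arrays and on 0 knockout arrays, so it passed the detection filter through wild type alone. On the scale of these signals, wild type exceeded knockout by at least 1.85-fold for Kremen2 (limma adjusted p = 0.63). Without wild-type replicate 1 it was at least 1.52-fold. The Kremen2 bound was not computed for other scalings, so it is not a firm minimum. The Wnt receptor Ror2 had a difference of 0.60 (SE 0.32) and Dkkl1, a relative of the Dkk genes, one of -0.35 (SE 0.17). Wif1, a secreted inhibitor that binds Wnts, was detected with 0.89, 0.36 and 0.16 in H19 knockout and 0.44, 0.11 and 0.32 in wild type, a difference of 0.18 (SE 0.22).

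Inside the cell, 33 of 34 genes of the beta-catenin route were tested, 22 with a difference above 0 and 11 below, with a median of 0.05. Ctnnb1, beta-catenin itself, had 4.75, 4.61 and 4.94 in H19 knockout, against 4.49, 4.62 and 4.67 in wild type, a difference of 0.17 (SE 0.15, limma adjusted p = 0.90). Ctnnbip1, which blocks beta-catenin from Tcf factors, had a difference of 0.26 (SE 0.15) and Apc2 one of 0.21 (SE 0.17). For Tcf7, a DNA-binding partner of beta-catenin, it was 0.88 (SE 0.75), with knockout replicate 3 at -0.86 and every other array at -2.43 or lower. The lymphocyte markers Cd3e, Cd3g and Cd2 were also highest on knockout replicate 3. The part of lymphocytes in the Tcf7 values was not tested.

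Common target genes of beta-catenin lay on both sides of 0. Of 28 genes 22 were tested, 13 with a difference above 0 and 9 below, with a median of 0.03 and 0 called. Lef1, detected on 3 of 6 arrays, had a difference of -0.04 (SE 0.54) and Nkd1, a feedback inhibitor, one of 0.06 (SE 0.45). The smallest p belonged to Plaur, the urokinase receptor, with 0.68 (SE 0.32, limma adjusted p = 0.64), followed by Tnfrsf19 with -0.52 (SE 0.26). Znrf3, a ligase that removes Frizzled receptors, had -1.94, -2.33 and -2.59 in H19 knockout, against 0.34, -2.20 and -2.22 in wild type. Wild-type replicate 1 stood far above the other arrays, and the difference was -0.93 (SE 0.68).

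In the branch for planar polarity and calcium, 31 of 32 genes were tested, 19 with a difference above 0 and 12 below, with a median of 0.05 and 0 called. Celsr2, a polarity cadherin, had -2.14, -2.40 and -2.02 in H19 knockout, against -1.49, -1.80 and -1.81 in wild type, and the genotypes did not overlap. All knockout arrays lay below all wild-type arrays for 9.68% of the 31 genes, beside 8.65% of all genes. Celsr2 had the smallest p of the list. Its difference was -0.49 (SE 0.17, limma adjusted p = 0.62). Ankrd6 and Prickle2, further polarity genes, had differences of -0.50 (SE 0.23) and -0.61 (SE 0.35).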

How the data were processed

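Per the labels' protocols, total RNA of cardiomyocyte fractions was labelled for Agilent mouse arrays read in 1 colour. The scanner files come from Agilent Feature Extraction 10.7.3.1, per the file headers, and hold a background-subtracted intensity for each spot, not normalized between arrays, with probe coordinates in mm9. The authors' deposited table of intensity values has a median of 69.7 on all 6 arrays and keeps the rank order of the scanner's signal (Spearman correlation 1). It was used as an alternative, and the sources used here do not say how it was normalized.

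The 3671 control spots and outlier spots were left out, spots of a probe averaged, and log2 signals set against the 75th percentile of each array (774 to 1152 intensity units). Of 55681 probes, 32 lacked a usable spot on some or all of the arrays and were left out. Names followed a RefSeq table (GRCm38.p6, names and promoter windows only): of the probes, 26425 matched through an accession, 3988 through a symbol and 837 through a synonym, while 24431 kept their name. A gene was read from its brightest probe and tested if that was well above background on 3 or more arrays. H19 knockout was compared with wild type by limma 3.58.1 (R 4.3.3), with Benjamini-Hochberg adjustment over all 21864 tested genes at 0.05; the fit was tested on simulated data. With 3 arrays a genotype, the smallest p of an exact permutation test is 0.1. The number of arrays limits the precision. Bounds on folds set the brighter mean against the mean, over arrays of the other genotype, of the probe's signal or the array's lowest detectable signal, whichever is higher.

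The genes and lists were chosen with earlier results of these data known. Values are given in full for genes with an unadjusted p under 0.05, without overlap or among the 3 brightest of a role, and for H19; of pathway lists, for the 3 genes with the smallest p plus Ctnnb1, Lef1, Nkd1 and Wif1; further per-array values were added after they were seen. The alternatives tried were the deposited values, quantile normalization, scaling to the probe median, normexp background correction (offset 50), other filters, averaging a gene's probes, a block for replicate number or for slide, a trended robust prior, and leaving out each array. Annotation of exons and UTRs in mm9 was not used here. The result of 1 marker gene is not reported here.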

Additional observations from a re-analysis of the deposited data

How the results depend on the processing

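H19 was lower in H19 knockout under every alternative in which it could be tested; with the filter on all 6 arrays it could not, since it was not well above background in knockout. Under each alternative 0 of the family's genes were called; the smallest adjusted p among them was 0.0512, for Fzd5 without wild-type replicate 3. The genes called over the whole array, 7 with the settings reported, were 3 with quantile normalization and with the deposited values, 1 with a filter of at least 1 array, without a filter and with slide as a block, and 117 with scaling to the probe median (100 higher and 17 lower), and ranged from 1 to 10 when 1 array was left out: 1 for any of the knockout arrays or wild-type replicate 2, 4 for wild-type replicate 1 and 10 for wild-type replicate 3. The family's genes at an unadjusted p under 0.05, 2 as reported, were 1 with quantile normalization, the deposited values or the filter on all 6 arrays, 4 with the filter of at least 1 array or none, 4 with scaling to the probe median (3 higher and 1 lower), and 1 to 4 when 1 array was left out: 1 for knockout replicates 2 and 3 and wild-type replicate 1, and 4 for wild-type replicate 3. The family's median difference moved to 0.38 with scaling to the median, where that of all genes was 0.36, and to -0.39 within slide 1. The cause was not tested. The number of arrays and the dimness of the probes limit what can be detected.

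Arrays of equal replicate number did not vary together: the correlation of deviations from the genotype means was -0.22, -0.05 and 0.04 for numbers 1, 2 and 3. Knockout replicate 2 correlated best with wild-type replicate 1 (0.33). With 3 arrays a genotype, these correlations cannot show whether the samples were paired by design. With the replicate block, 1 gene over the whole array and 0 of the family were called, and 3 of the family had an unadjusted p under 0.05.

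Between slides, 15 of the 26 tested genes had differences of opposite sign. Beside those in the report, Rspo1 had -0.75 on slide 1 and 0.70 on slide 2, Wnt9a 0.14 and -0.13, Fzd9 0.75 and -0.31, and Wnt9b -1.23 and 0.28. In the same order of slides, Wnt11 had -0.56 and 0.20, Wnt5a -0.061 and 0.026, and Fzd1 -0.022 and 0.21. Fzd4 had -0.49 and 0.29, Fzd8 -0.29 and 0.33, Lrp6 0.28 and -0.21, and Axin1 0.20 and -0.0014. Across the other settings, the differences given next, none of them called, changed sign. With scaling to the probe median, Dkk3 had 0.34, Fzd3 0.29, Fzd6 0.30, Fzd7 0.35, Lrp6 0.38, Wnt1 0.25, Wnt11 0.37, Wnt5a 0.42, Wnt5b 0.068, Wnt9a 0.38 and Wnt9b 0.20. With quantile normalization Fzd3 had 0.011, Wnt11 0.16, Wnt5a 0.025 and Wnt9b 0.16, and with the deposited values Wnt11 had 0.15, Wnt5a 0.033 and Wnt9b 0.16. With normexp Fzd8 had -0.022, Fzd9 -9.1e-05 and Wnt5a 0.0051. Leaving out each array in turn gave -0.72 to 0.37 for Dkk3, -0.058 to 1.0 for Frzb, -0.057 to 0.31 for Fzd1, -0.045 to 0.41 for Fzd2, -0.25 to 0.20 for Fzd4, -0.30 to 0.10 for Fzd7, -0.13 to 0.31 for Fzd8, -0.15 to 0.38 for Fzd9, -0.0597 to 0.11 for Lrp5, -0.17 to 0.023 for Lrp6, -0.21 to 0.85 for Sfrp1, -0.23 to 0.18 for Wnt11, -0.18 to 0.17 for Wnt5a, -0.19 to 0.13 for Wnt9a and -0.62 to 0.14 for Wnt9b.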
